A study of Drosophila melanogaster with 3 samples.

Results

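The heat shock factor gene Hsf and 7 genes of heat shock proteins (Hsp83, Hsc70-4, Hsp22, Hsp23, Hsp26, Hsp27 and Hsp68) were followed through the SREBP peak lists of wandering larvae. The 8 genes were listed by their FlyBase symbols, among 13945 protein-coding genes on the chromosome arms X, 2, 3 and 4. SREBP is a transcription factor of lipid synthesis that is released from membranes by proteolysis. Its chromatin sites were mapped by ChIP-seq, in which DNA bound to a protein is precipitated with an antibody and sequenced. The animals were whole wandering larvae of the last larval instar, males and females pooled, of 1 transgenic line that carries SREBP with GFP at its N terminus. The antibody was against GFP per the description in the labels, while their antibody field reads HLH106, an older name of SREBP. The 3 samples were biological replicates of 1 group, the labels name no heat treatment, and the control experiment they name as possible is not analysed here. All values pool the tissues of the larva, so fewer cells with a site and a weaker site in each cell cannot be told apart.

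In flies, Hsf binds DNA as a trimer at heat shock elements, which are repeats of GAA and TTC in alternation, and it drives the transcription of heat shock genes after heat or other protein damage. The Hsp70 and Hsp90 proteins fold and hold client proteins with the use of ATP, and small heat shock proteins hold unfolded proteins without it. Heat shock promoters in flies are also known for GAGA factor binding and for a polymerase that pauses just past the start site. The genes were placed in 2 classes from textbook knowledge. Inducible genes were Hsp22, Hsp23, Hsp26 and Hsp27, which encode small heat shock proteins that are also made in late larvae under ecdysone, and Hsp68, an Hsp70 family gene. Constitutive genes were Hsf, Hsp83 (the cytosolic Hsp90, made without heat and raised by it) and Hsc70-4 (the main cognate Hsp70). Each replicate list and the list made from all replicates together held 30000 peaks. The authors' optimal set holds the strongest peaks of that pooled list. The authors' signal value served to order the peaks of a list, with rank 1 the strongest, and its scale was not given in the sources used here. Read depth is unknown for every list.

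The sequences under the strongest summits of the members are shown first, since the position of heat shock elements in and beside the peaks is described with the values. Each is read 5′ to 3′ on the strand of the named gene from the dm6 assembly and runs 100 bp to either side of the summit. Capitals mark pairs of heat shock units (GAANNTTC, or the same units in the reverse order) and GAGAG or its reverse complement. The summit upstream of Hsp27 (chr3L:9383803-9384003, plus strand) had neither within this span. The summit upstream of Hsp26 (chr3L:9377466-9377666, minus strand) had both. The summit in the Hsp83 intron (chr3L:3194173-3194373, plus strand) had neither, and the one at the Hsp83 promoter (chr3L:3192995-3193195, plus strand) and the one upstream of Hsc70-4 (chr3R:15242360-15242560, plus strand) each had 1 pair.
Hsp27: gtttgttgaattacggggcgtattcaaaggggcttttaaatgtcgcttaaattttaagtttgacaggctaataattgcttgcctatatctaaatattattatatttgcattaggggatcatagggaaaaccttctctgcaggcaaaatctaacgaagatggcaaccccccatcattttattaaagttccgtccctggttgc
Hsp26: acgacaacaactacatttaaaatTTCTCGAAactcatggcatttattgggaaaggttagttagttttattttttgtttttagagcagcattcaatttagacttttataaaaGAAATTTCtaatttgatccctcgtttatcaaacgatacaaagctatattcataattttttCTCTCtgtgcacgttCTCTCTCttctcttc
Hsp83 intron: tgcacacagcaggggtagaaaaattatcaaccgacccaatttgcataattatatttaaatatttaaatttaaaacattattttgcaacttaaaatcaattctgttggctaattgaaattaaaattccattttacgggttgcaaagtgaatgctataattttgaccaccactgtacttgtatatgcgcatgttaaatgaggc
Hsp83 promoter: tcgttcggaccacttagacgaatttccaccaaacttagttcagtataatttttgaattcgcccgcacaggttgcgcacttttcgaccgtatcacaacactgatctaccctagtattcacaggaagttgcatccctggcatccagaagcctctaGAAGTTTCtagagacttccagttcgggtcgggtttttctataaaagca
Hsc70-4: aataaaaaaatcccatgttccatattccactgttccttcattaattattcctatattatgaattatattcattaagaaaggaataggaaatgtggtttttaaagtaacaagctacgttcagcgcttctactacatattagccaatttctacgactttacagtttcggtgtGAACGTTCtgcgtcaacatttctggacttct

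An optimal summit lay in the gene body or within 5 kb of a transcription start site (TSS) for 7 of the 8 genes, against 55.7% of all protein-coding genes and 52.3% of the genes whose search window was as long as those of the members. The exception was Hsf. Within 500 bp of a TSS the count was 6 of 8 (Hsp27, Hsp83, Hsp26, Hsc70-4, Hsp22 and Hsp23), against 28.7% of all genes. With the same 500 bp limit, 4 of 8 were found among the 2000 strongest optimal peaks, against 9.86%, and 1 of 8, Hsp27, among the 1000 strongest, against 5.21%. Hsp83 at rank 1051 lay just outside that limit. The windows of the 8 genes held 13 distinct optimal summits, of which 6 fell in the windows of 2 or more members because the small heat shock genes lie close together. The members are 8 chosen genes and no sample of genes, so no test was made of these counts. Of the 13 summits, 11 had a summit within 150 bp in all 3 full replicate lists. When each replicate list was limited to as many of its strongest peaks as the optimal set holds, 7 of the 8 genes had a summit in their window in every replicate, against 47.9% of all genes. By mean replicate rank in the wide window the order was Hsp27 and Hsp23 (36, a shared summit), Hsp83 (534), Hsp26 and Hsp22 (1510, a shared summit), Hsc70-4 (2016) and Hsp68 (4719). The ranges of Hsp83 and Hsp26 over the replicates overlapped, but within each replicate Hsp83 was the stronger, in 3 of 3. Hsp26 and Hsc70-4 overlapped too and kept no fixed order, with Hsp26 stronger in 2 of 3. Hsp27 and Hsp68 lay apart from their neighbours.

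**Figure D1:**
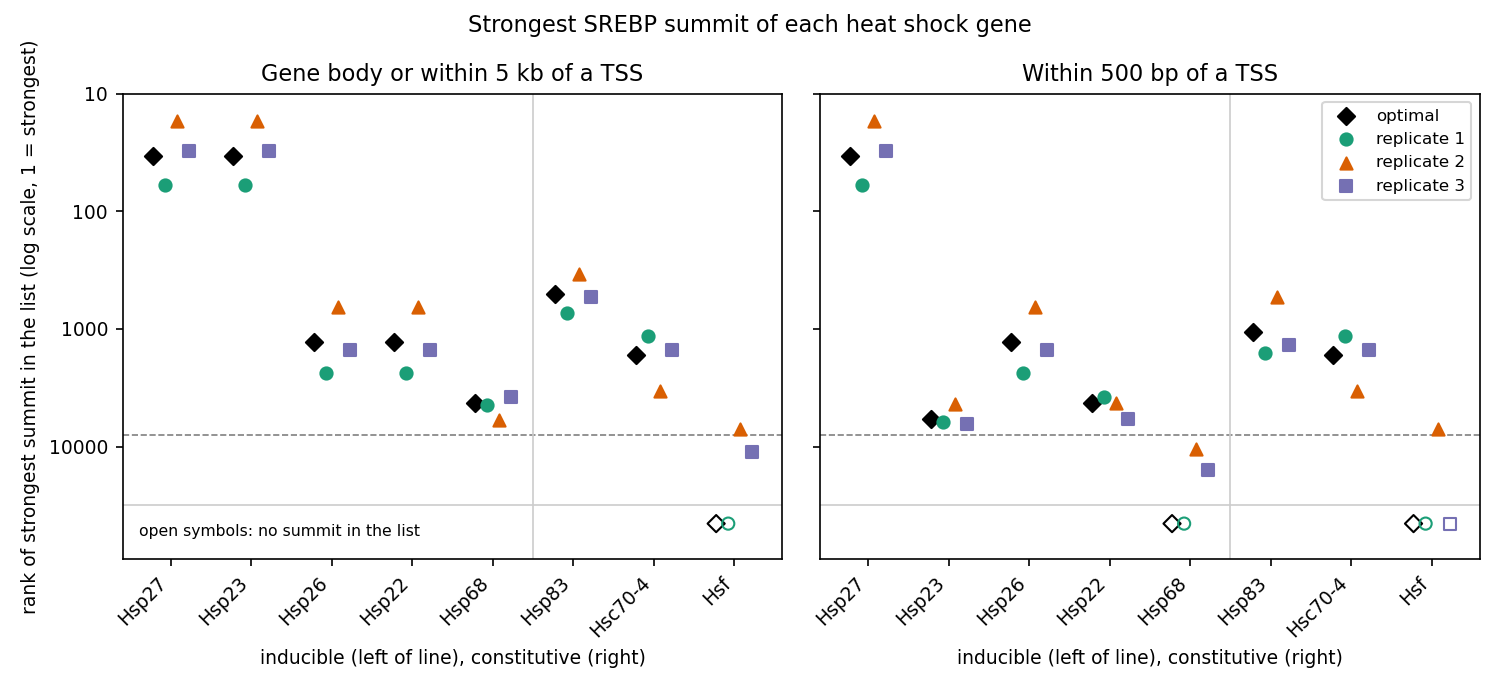
Rank of the strongest summit of each gene (log scale, strongest at the top) in the optimal list and in each replicate, for the wide window (left) and within 500 bp of a TSS (right). Open symbols mark lists with no summit, and the dashed line is the last rank of the optimal set. Hsp27 stands between ranks 17 and 60 in every list, Hsp23 falls from the same ranks to between 4339 and 6459 once the search is limited to 500 bp, and Hsf has no optimal summit.

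Hsp27 (FBgn0001226, 3L from 9384063 to 9385694), a small heat shock protein gene, had the strongest peak of the group by far. Its peak ran from 9383683 to 9384145 on 3L, with the summit 160 bp upstream of the only annotated TSS, in sequence outside any gene, and no other protein-coding gene had a TSS within 500 bp. The summit had rank 34 in the optimal list, with an authors' signal value of 7617. Replicates 1, 2 and 3 placed it at ranks 60, 17 and 31, for a mean of 36 ± 21.9 (SD, n = 3). Hsp27 took place 32 among the 4009 genes with an optimal summit within 500 bp. Its weakest replicate rank, 60, stayed clear of the best of the next member, Hsp83, whose strongest summit ranked 341 in replicate 2. By the distance between log2 ranks in the 3 replicates within 500 bp of a TSS, the genes most like Hsp27 were Fkbp14 (ranks 45, 15 and 24, distance 0.58) and Lpin (ranks 49, 28 and 43, distance 0.91).

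The same summit was the strongest in the window of Hsp23 (FBgn0001224, 3L from 9381882 to 9382765), where it lay 2021 bp downstream of the TSS and past the end of that gene. Hsp23 had a weak summit of its own in its 5′ UTR, 52 bp downstream of the TSS. It had rank 5775 in the optimal list and ranks 6207, 4339 and 6459 in replicates 1, 2 and 3, a mean of 5668 ± 1158 (SD, n = 3). A further optimal summit, 1131 bp upstream of Hsp23 in an exon of the antisense RNA gene asRNA:CR43481, had rank 7457. Hsp23 and Hsp27 are neighbours on the same strand, and every replicate placed the Hsp27 promoter summit far above that of Hsp23.

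Hsp26 (FBgn0001225, 3L from 9376418 to 9377427) had its summit 139 bp upstream of its nearest TSS, with rank 1286 in the optimal list. Its peak ran from 9377350 to 9377721 on 3L. The replicate ranks were 2387, 647 and 1497, a mean of 1510 ± 870 (SD, n = 3). Hsp22 (FBgn0001223, 3L from 9372931 to 9374964), whose product is found in mitochondria, had 2 optimal summits between its 2 annotated start sites. The stronger, 433 bp upstream of the second start, had rank 4241 and ranks 3816, 4216 and 5794 in the replicates, a mean of 4609 ± 1046 (SD, n = 3). The other, at rank 5446, lay 383 bp past the first start in coding sequence of CG4456, a gene listed under the synonym Hsp67Bb that overlaps Hsp22, and had a match in 2 replicates (ranks 5154 and 8388). Within 500 bp of a TSS, the ranges of Hsp22 and Hsp23 over the replicates overlapped, and those of Hsp26 and Hsp83 did too. Compared within each replicate, Hsp22 was stronger than Hsp23 in 3 of 3, and Hsp83 was stronger than Hsp26 in 3 of 3.

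The cluster of small heat shock genes at cytological position 67B thus held more summits than most stretches of its length. From 1000 bp before Hsp22 to 1000 bp after Hsp27 (3L from 9371931 to 9386694, 14764 bp) there were 6 optimal summits, against a mean of 0.882 and a median of 0 over 9064 windows of the same length. As many were found in 1.24% of those windows. The windows covered all arms and were not matched for the number of genes or start sites, so the part of gene density in this share was not tested. In replicates 1, 2 and 3, limited to as many peaks as the optimal set, the stretch held 5, 5 and 4 summits, and 2.45%, 3.14% and 5.71% of windows held as many. The summits were far from equal. Those of Hsp27 and Hsp26, at ranks 34 and 1286, were followed by 4 at ranks between 4241 and 7457. Apart from CG4456, which shares a summit with Hsp22, the other small heat shock genes of the stretch had no optimal summit within 500 bp of a TSS. Hsp67Ba had a pooled summit at rank 15024, Hsp67Bc at rank 14587, and CG4461 none.

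**Figure D2:**
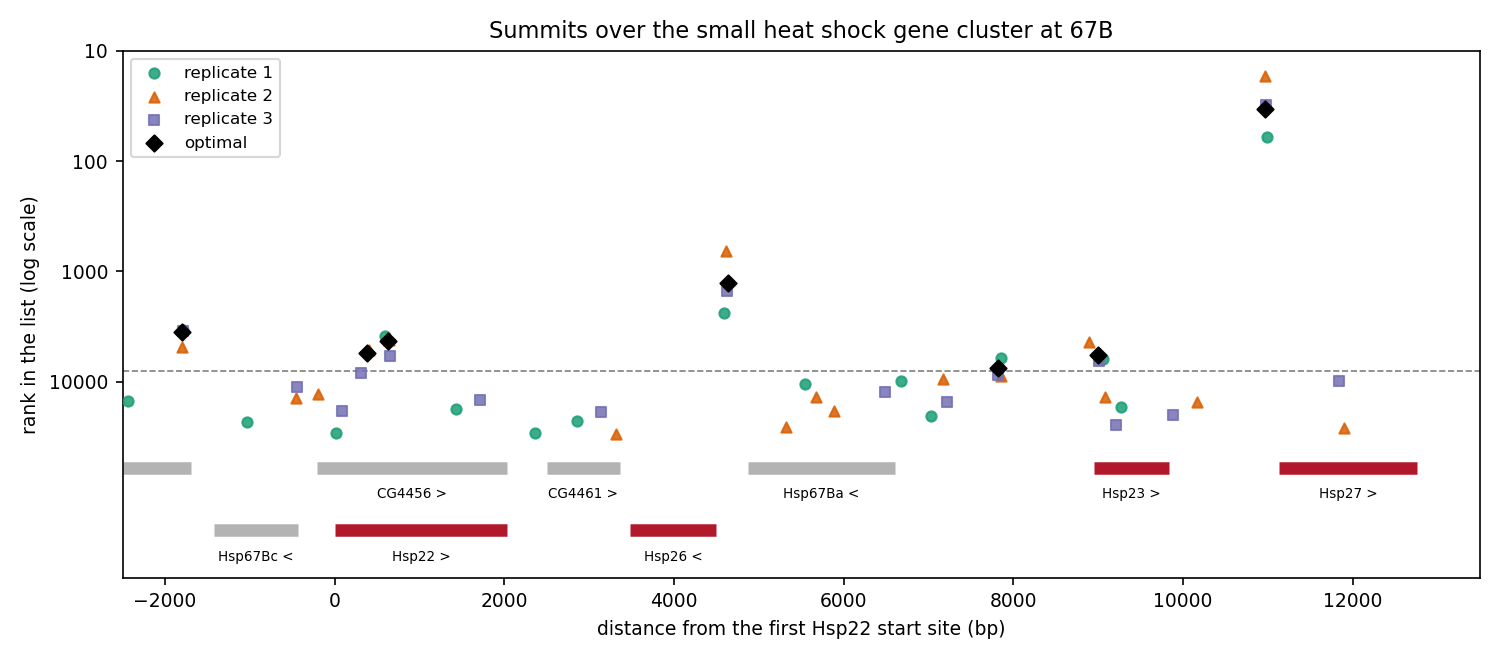
Summits over the 67B cluster by distance from the first Hsp22 start site (bp) and rank in each list (log scale, strongest at the top). Red bars are members, grey bars other protein-coding genes, and the arrowheads give their direction. The highest points, at ranks 17 to 60, lie just before Hsp27, the next, at ranks 647 to 2387, just before Hsp26, and the other optimal summits lie at ranks 3546 to 7457, above the dashed line at the last rank of the optimal set.

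Hsp83 (FBgn0001233, 3L from 3192969 to 3197059) had a pair of strong summits, and the stronger was in an intron. The intronic summit lay 1057 bp downstream of the second annotated TSS, in a peak from 3194090 to 3194438 on 3L, with no TSS of another gene within 500 bp. It had optimal rank 504 and ranks 729, 341 and 531 in the replicates, a mean of 534 ± 194 (SD, n = 3). The promoter summit lay 126 bp past the first TSS and 121 bp before the second, in an annotated 5′ UTR. It had optimal rank 1051 and ranks 1609, 536 and 1365, a mean of 1170 ± 562 (SD, n = 3). The intronic summit was the stronger in each of the 3 replicates, although the rank ranges of the pair overlapped between replicates. A weak summit (optimal rank 6014) 4464 bp downstream of the second start was 49 bp from the TSS of the neighbour CG14966.

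Hsc70-4 (FBgn0266599, 3R from 15242687 to 15246614) had its strongest summit 227 bp upstream of its first TSS, in a peak from 15242276 to 15242673 on 3R. That site lies between Hsc70-4 and tefu, the ATM kinase gene of the DNA damage response, which is transcribed in the opposite direction, and the summit was 224 bp from the TSS of tefu. Its optimal rank was 1658, and its replicate ranks were 1154, 3374 and 1521, a mean of 2016 ± 1190 (SD, n = 3). In replicates 1, 2 and 3 the summit lay 209, 222 and 197 bp upstream of the Hsc70-4 start. A second optimal summit 23 bp upstream of the Hsc70-4 start, at rank 7775, had a match in replicate 2, at rank 4496, and in no other replicate. Within 500 bp of a TSS the ranges of Hsc70-4, Hsp26 and Hsp83 overlapped (means of 2016, 1510 and 1170). Compared within each replicate, Hsc70-4 was weaker than Hsp26 in 2 of 3 and weaker than Hsp83 in 2 of 3, so its place in this order changed between replicates.

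The promoter of Hsp68 is shown because it had no optimal summit and held the only exact complete heat shock element among the 8 promoters. The search allowed no mismatch in the units and covered only the stretch around the first TSS of each gene, so imperfect elements were not counted. Read on the minus strand, the Hsp68 promoter spans chr3R:24057261-24057560, from 250 bp before the TSS to 50 bp of transcribed sequence. Capitals mark pairs of heat shock units.
Hsp68: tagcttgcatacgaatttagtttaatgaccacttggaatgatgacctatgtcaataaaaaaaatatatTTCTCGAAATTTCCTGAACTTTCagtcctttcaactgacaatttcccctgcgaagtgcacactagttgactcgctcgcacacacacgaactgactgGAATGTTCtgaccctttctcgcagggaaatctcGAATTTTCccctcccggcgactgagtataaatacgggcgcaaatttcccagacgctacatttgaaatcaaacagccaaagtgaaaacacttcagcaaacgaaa

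Hsp68 (FBgn0001230, 3R from 24055080 to 24057310) had a single optimal summit in its window, 905 bp upstream of its TSS at rank 4272. That summit lay 72 bp upstream of the TSS of SMC1, a cohesin subunit gene that faces away from Hsp68. The replicate ranks were 4453, 5904 and 3800, a mean of 4719 ± 1077 (SD, n = 3). At the Hsp68 start itself the pooled list had a summit 60 bp downstream at rank 20014, with a -log10 q-value of 0.529. Replicates 2 and 3 had summits there at ranks 10402 and 15636, and replicate 1 had none within 500 bp. The wide window thus counted Hsp68 through the promoter of its neighbour.

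Hsf (FBgn0001222, 2R from 18130303 to 18134634) had no optimal summit within 5 kb of its TSS or in its body, and the nearest, at rank 6392, was 6122 bp away. The 5 pooled summits in its window all ranked below the optimal set by signal value. The strongest, at rank 8784, lay 708 bp upstream and 84 bp from the TSS of Pcl, a Polycomb group gene on the other side. Its -log10 q-value of 3.77 was above the lowest in the optimal set, 3.72. The best within 500 bp of the Hsf start was 295 bp downstream at rank 12775. Replicate 1 listed no summit in the window among its 30000 peaks. Replicate 2 listed 5, the strongest 282 bp downstream at rank 7024, and replicate 3 listed 3, the strongest at rank 11192 near Pcl. With the full pooled list, 8 of 8 members had a summit within 500 bp of a TSS, against 47.8% of all genes.

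**Figure D3:**
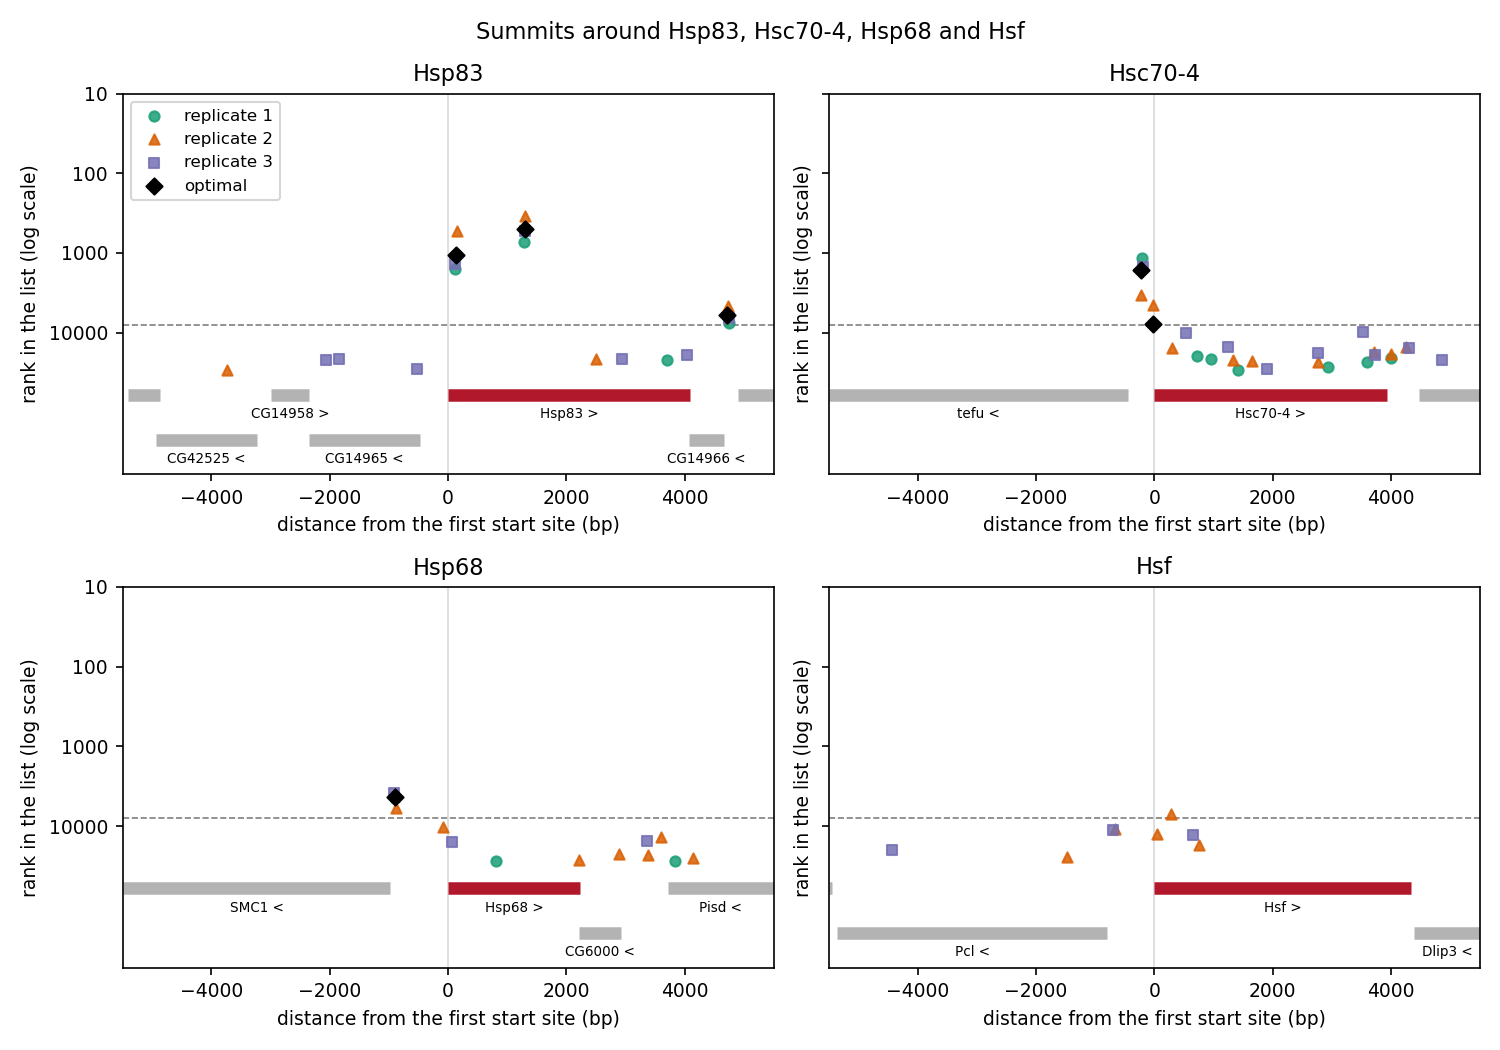
Summits around the first start site of Hsp83, Hsc70-4, Hsp68 and Hsf, by distance along the strand of the gene (bp) and rank in each list (log scale, strongest at the top). Red bars are members, grey bars other protein-coding genes, and the dashed line is the last rank of the optimal set. Hsp83 has its highest point inside the gene, Hsc70-4 between itself and tefu, Hsp68 at the start of SMC1, and Hsf has no optimal summit.

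The ranks of inducible and constitutive genes overlapped. With the wide window, 5 of 5 inducible and 2 of 3 constitutive genes had an optimal summit, with a median best rank of 1286 for the inducible genes and 1658 for the constitutive ones when Hsf was given the rank just past the end of the full lists. Over all protein-coding genes, with those without a summit counted in the same way, the median was 6367. In the inducible class, Hsp27 and Hsp23 shared the summit at rank 34, and Hsp26 and Hsp22 the one at rank 1286. That of Hsp68, at rank 4272, lay at the promoter of SMC1. The wide-window values of this class thus do not stand for 5 separate summits. The difference of the median log2 ranks, inducible minus constitutive, was 1.05, -2.38 and -0.02 in replicates 1, 2 and 3, a mean of -0.45 ± 1.76 (SD, n = 3). The direction thus differed between replicates (exact sign-flip permutation test over replicates, two-sided, p = 0.75, and 3 replicates cannot give a p below 0.25), and the mean was 0.51 without replicate 2 and -2.58 with Hsp83 counted as inducible. Within 500 bp of a TSS, 4 of 5 inducible and 2 of 3 constitutive genes had an optimal summit, with median ranks of 4241 and 1658 when Hsp68 and Hsf were counted as before. Over all genes this median falls on a gene without a summit. Here the difference was 1.25, 0.32 and 1.93, a mean of 1.17 ± 0.81 (SD, n = 3), so inducible genes had the weaker median rank in 3 of 3 replicates (exact sign-flip permutation p = 0.25, the smallest possible). Each of these medians is the rank of a single gene, Hsp22 for the inducible class and Hsp83 or Hsc70-4 for the constitutive one. The difference thus does not describe the classes as a whole. With each summit given only to its nearest TSS the difference was 1.73, 0.32 and 1.93, a mean of 1.33 ± 0.88 (SD, n = 3, exact permutation p = 0.25). The optimal list went the other way under that last assignment, with medians of 4241 for inducible and 7775 for constitutive genes, because its strongest Hsc70-4 summit was 224 bp from tefu and 227 bp from Hsc70-4. The inducible class itself ran from Hsp27 at rank 34 to Hsp68, which had no optimal summit within 500 bp.

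**Figure D4:**
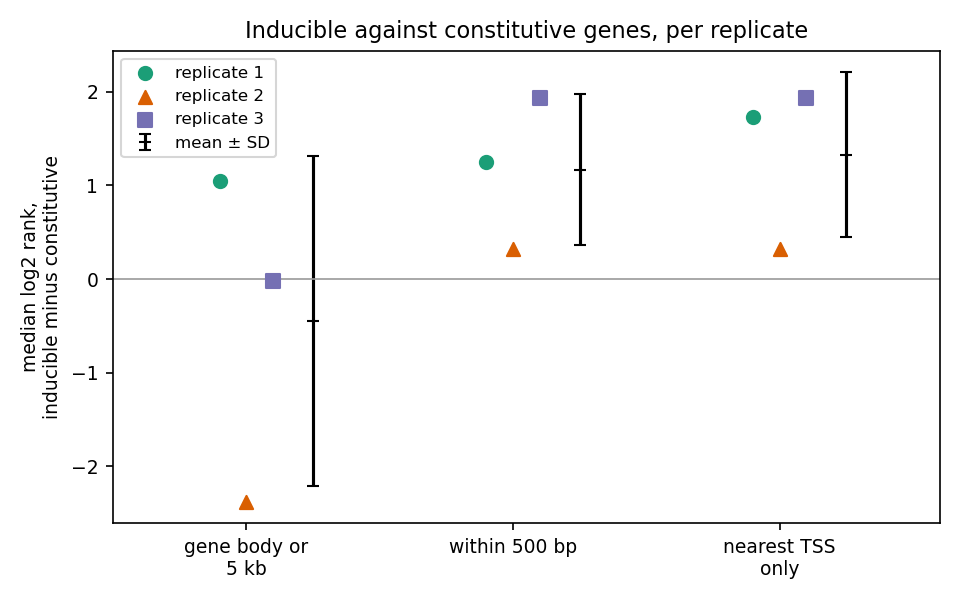
Difference of the median log2 rank of the strongest summit, inducible minus constitutive genes, in each replicate for 3 ways of giving summits to genes. Values above 0 mean a weaker median rank for inducible genes, and the bars are the mean ± SD over 3 replicates. The replicates lie on both sides of 0 for the wide window and above 0 for the other two.

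Replicate 2 ranked several members higher than the other replicates did. Of the 6 members with a summit within 500 bp of a TSS in every list, 4 (Hsp27, Hsp26, Hsp23 and Hsp83) had their best rank in replicate 2, against 24.7% of the 3730 genes with such a summit in every list. Hsp26 stood at rank 647 there, against 2387 and 1497, and the Hsp83 promoter at 536, against 1609 and 1365. Hsc70-4 went the other way, at rank 3374 against 1154 and 1521. This comparison was chosen after the values had been seen, and what sets replicate 2 apart was not tested.

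Complete heat shock elements were taken as at least 3 alternating units of GAA and TTC with 2 bases between them, with no mismatch allowed. They were absent from the intervals of all 13 optimal peaks and were present in 0.5% of all optimal peaks. Pairs of units were found in 7 of the 13 intervals, against 16.3% of all optimal peaks. The peak of Hsp26 held 4 pairs, and those of Hsp27, Hsp23 and Hsc70-4 and both peaks of Hsp83 held 1 each. The second Hsc70-4 peak covers nearly the same interval and counts the same pair again. In the window from 250 bp before to 50 bp after the first TSS, 1 of the 8 promoters held a complete element, that of Hsp68 with 3 overlapping matches that start at -182, -177 and -172 bp from the TSS, against 0.43% of all promoters. Pairs were present in 4 of the 8 promoters (Hsc70-4, Hsp23, Hsp26 and Hsp68), against 15.9% of all. For Hsp83, Hsp22 and Hsp26 this window does not reach the second start. The pair in the Hsp83 promoter peak, which lies between the first and second starts of that gene, was thus not counted. The promoter with the most pairs, that of Hsp68, had no optimal promoter summit. The member with the strongest summit, Hsp27, had no pair in this promoter window, and the 1 in its peak lay outside it. Hsp26, with 3 pairs in its promoter window, had a promoter summit at optimal rank 1286.

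The E-box CACGTG and the sterol element TCACNCCAC, which are known binding sequences of SREBP proteins, were in 0 of the 13 peak intervals, against 3.44% and 0.776% of all optimal peaks, and in 0 of the 8 promoters, against 4.2% and 0.545%. GAGAG, searched on both strands with overlapping matches counted, was in 3 of the 13 peaks (Hsp26 with 8 matches, Hsp27 with 3 and Hsp22 with 3), against 34.8% of all. It was in 3 of the 8 promoters (Hsp26 with 6 matches, Hsp22 and Hsp23 with 1 each), against 29.7% of all. TATAAA was in 9 of the 13 peaks, against 46.7%, and in 7 of the 8 promoters, against 45.8%. Both Hsc70-4 peaks, which cover nearly the same interval, are among the 9. In the promoters of Hsc70-4, Hsp23, Hsp27 and Hsp68 the match began at -27 or -28 bp from the first TSS. In those of Hsp83, Hsp22 and Hsp26 it began elsewhere relative to the first TSS. These genes have 2 annotated starts each, and distances of matches to the second were not measured. In Hsp26, 1 match began 24 bp past the first start and before the second. In the Hsp83 promoter peak, outside this promoter window, a match began 91 bp past the summit. The second Hsp83 start lay 121 bp past that summit. The replication element TATCGATA was in 0 of the 13 peaks, against 5.18%, and in 1 promoter, that of Hsp83, against 9.36% of all. The G+C content within 100 bp of the summit was 37.8% for Hsp27, 29.9% for Hsp26, 30.3% for the Hsp83 intron, 44.8% for the Hsp83 promoter and 32.8% for Hsc70-4, against a median of 33.8% and a central range of 23.9% to 49.8% (5th to 95th percentile) over all optimal summits. These matches describe letters in the windows and were not tested as binding sites.

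Other chaperone genes, taken from 6 lists of 41 matched genes, had an optimal summit within 500 bp of a TSS for 21 of 41, against the 28.7% of all genes given above. The heat-inducible Hsp70 genes had none in 6, and Hsp70Aa alone had a pooled summit there, at rank 27837. These 6 genes are near-identical copies, so reads from them may not map to 1 place and their values are uncertain. Of the other Hsp70 family genes, 2 of 5 had a summit. Hsc70-5, the mitochondrial Hsp70, had rank 452 (383, 628 and 424 in the replicates) at a peak shared with CG8531, and Hsc70-3, the Hsp70 of the endoplasmic reticulum, had rank 3859. Hsp110 had a pooled summit at rank 8509, just outside the optimal set, and Hsc70-1 and Hsc70-2 had none. Other small heat shock genes had a summit for 1 of 8, the peak that CG4456 shares with Hsp22, and l(2)efl, CG4461, CG7409 and CG13133 had no pooled summit.

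Most of the listed co-chaperone and chaperonin genes had a promoter summit. Among the Hsp70 co-chaperones, 6 of 7 had a summit, with a median rank of 2052. The J-domain gene mrj had rank 1019 (1130, 931 and 1041 in the replicates), CG5001 rank 1315 and stv, a BAG-domain gene, rank 1948. Among the Hsp90 co-chaperones, 4 of 6 had a summit, led by unc-45, a myosin chaperone, at rank 2230, CG1416 at 3955 and Cdc37, which brings kinases to Hsp90, at 4458. All of these 3 peaks were shared with other genes (CG11035 for unc-45, step for CG1416, alpha-Spec and dlt for Cdc37). In the chaperonin list, 8 of 9 genes had a summit, with a median rank of 5182. Over all genes with an optimal summit within 500 bp of a TSS the median was 3161. It lies between the medians of the Hsp70 co-chaperones and the chaperonins. Most of the chaperonin peaks, those of CCT3 and CCT8 among them, were shared with another gene, and that of Hsp60A was not. CCT3 had rank 1798, Hsp60A, the mitochondrial chaperonin, 2837 and CCT8 3091, while CCT4 had no pooled summit. With each summit given only to its nearest TSS, 17 of the 41 genes kept one within 500 bp, against 21.7% of all protein-coding genes, and CCT3, CCT8, unc-45 and Droj2 did not.

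The other members also had close matches by replicate ranks within 500 bp of a TSS. For Hsc70-4 these were tefu, which shares its peak, and alpha-Man-Ib (distance 0.17 on the log2 scale). For Hsp22 they were Arp8 and CG6769 (0.14 each, with identical ranks to each other), for Hsp23 dre4 and Wdr62 (0.11 each), for Hsp83 CG42327 (0.57) and mrt (0.62), and for Hsp26 Hsp83 (0.64) and CG11899 (0.71). Weak peaks have more genes near their ranks, so their distances are shorter.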

How the data were processed

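SREBP ChIP-seq peak lists of 3 biological replicates were used, numbered as in the labels. Nothing in the labels says whether the larvae were raised apart, so the spread between replicates may be in part technical. Per the deposited notes, the authors made a narrowPeak list on dm6 for each replicate from its alignments plus 1 file the notes do not describe, a pooled list from all 3 alignments together, and an optimal set from these lists by the irreproducible discovery rate. Aligner, peak caller and threshold were not given in the sources used here. Peaks were ordered within each list by the authors' signal value (column 7), and the deposited -log10 q-value was given for weak summits only.

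Summits were the deposited start plus offset, counted from 1. Gene models were from Ensembl release 115 (BDGP6) and sequence from RefSeq release 6, which have dm6 coordinates, and every peak lay inside the arms. Members, classes and lists were chosen with earlier results of these data known. In medians, genes without a summit took the rank just past the end of the full lists. Of the list genes, 3 were matched by a synonym, and CHIP and Hop were left out because their synonyms are ambiguous. Besides the members, the genes named are those that share a member's summit, the 3 best and the unbound genes of each list, and the 2 genes nearest to a member in replicate ranks. A few neighbours (Fdx1, CG14966, Pcl, SMC1), Hsp67Ba, Hsp67Bc, Hsp70Aa, Hsp110, Droj2 and genes that share a peak with a listed gene were added after their values were seen. Assignment within 500 bp of a TSS and the search for heat shock elements and pairs were tested on simulated data. The check of the nearest-TSS assignment would also have passed a wrong gene, and the searches for the other motifs were not tested. Scripts used Python 3.11.15, numpy 2.4.6 and pandas 2.3.3.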

Additional observations from a re-analysis of the deposited data

How the results depend on the processing

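The count of members with an optimal summit in the wide window was 3 with the gene body alone and 3 with the 1000 strongest peaks, and between 6 and 8 under the other alternatives. The count within 500 bp of a TSS ran from 4 to 8. The median rank of the inducible genes was 4241 within 500 bp of a TSS and also with summits given to the nearest TSS only, and 4272 without the 4 genes of 67B. That of the constitutive genes was 7775 with the nearest TSS only, where the Hsc70-4 summit went to tefu, and 15830 with Hsp83 counted as inducible, which leaves Hsc70-4 and Hsf. The difference between the classes turned from -0.45 to 1.17 within 500 bp and to 1.33 with the nearest TSS only, both of which by construction leave Hsp22 and Hsp23 with their own weaker summits. It was -2.58 (exact sign-flip permutation p = 0.25) with Hsp83 counted as inducible, the farthest of these values from the main one. It ran from -1.20 to 0.51 when single replicates were left out, and it was 0.51 without replicate 2. The number of members found in all replicates was 6 or 7 throughout. No paired analysis was possible because the samples form 1 group, so samples could not be paired across groups, while genes were compared within each replicate. The lists hold no reads, so depth could not be weighed.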
